A study of Mus musculus with 2 samples.

Results

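The oxidative phosphorylation genes of the nucleus were followed in single leukocytes of Lewis lung carcinoma (LLC) tumors grown under the skin of mice. Members were chosen by symbol alone: every gene starting with Nduf and a, b, c, s or v, with Cox and 4 to 8, with Atp5 or with Uqcr, plus Sdha, Sdhb, Sdhc and Sdhd. Of 27998 genes in the matrices 92 matched, and the 88 with at least 100 unique molecular identifiers (UMIs, 1 per captured RNA molecule) over both libraries were kept. LLC cells, a mouse lung carcinoma line, were implanted at 8 weeks of age into mice whose strain the labels give as C57/BL6, and CD45+ cells, the leukocyte fraction, were sorted on day 14 from mice labelled as 10 weeks old. Control mice carried a loxP-flanked miR-21 gene (mir-21flox/flox), and the conditional knockout mice carried the same allele with LysMCre, which drives Cre from the lysozyme M gene and so deletes mainly in macrophages and granulocytes. Each genotype was a pool of 3 mice run as 1 droplet library, which gives 2 libraries without replicates or tests. The titles are wt and cko, but the cell source text names the conditional knockout under wt and the floxed control under cko, and the growth protocol speaks of a macrophage gate in place of CD45+ cells. Each group is therefore named by its label, as the library labelled wt or cko. Mature miR-21 is not read by poly(A) 3′ counts, so the labels were not checked against it.

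Oxidative phosphorylation runs in the inner mitochondrial membrane. Complex I oxidizes NADH and complex II (succinate dehydrogenase) oxidizes succinate, complex III passes the electrons to cytochrome c, complex IV hands them to oxygen, and complex V (ATP synthase) uses the resulting proton gradient to make ATP. All 4 subunits of complex II come from nuclear genes, whereas complexes I, III, IV and V are built from products of both the nuclear and the mitochondrial genome, whose 13 protein genes were read in the same cells. In leukocytes the balance between this pathway and glycolysis is known to shift with lineage and activation, and mature neutrophils are known for few active mitochondria.

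The kept genes comprised 36 subunits of complex I (7 core and 29 accessory), 4 of complex II, 8 of complex III, 15 of complex IV, 15 of complex V (5 of the catalytic F1 part and 10 of the membrane part and stalk) and 10 further factors. The factors were 7 assembly factors of complex I, Cox7a2l, Atp5s and Atp5sl. Atp5s and Atp5sl are named for ATP synthase but are not subunits of it. Cox7a2l is known as a factor that joins respiratory complexes into supercomplexes, and its function in these mice was not examined. Complex V held 29.0% of all UMIs of these genes, complex I 27.6%, complex IV 27.4%, complex III 10.7%, complex II 2.79% and the factors 2.54%. They lie on 19 chromosomes, with at most 9 on any of them. A 3′ protocol counts molecules without regard to transcript length, so UMI counts can be compared between genes, apart from differences in capture.

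Levels spanned more than a factor of 100 within the set. Cox4i1, a structural subunit of complex IV, was the highest with 28415 UMIs in the library labelled wt and 29842 in the library labelled cko. It was followed by Atp5b, the catalytic beta subunit of F1 (20489 and 23114), then Atp5l (20267 and 21972) and Cox8a (19289 and 21654). In complex I the accessory subunits Ndufa13 (9251 and 10217 UMIs) and Ndufa2 (8897 and 10052) led, and the core subunit Ndufs1, which carries iron-sulfur clusters, was lowest (1151 and 1239). Sdhb, the iron-sulfur subunit, led complex II (6577 and 7134), and Sdhc, a membrane anchor, was lowest there (2739 and 2877). In complex III the hinge protein gene Uqcrh (13548 and 14163) stood above Uqcrb (12518 and 13742), and the core protein gene Uqcrc2 was lowest (3599 and 3945). Just inside the limit of 100 UMIs over both libraries were Atp5s with 125, Cox4i2 with 246 and Cox6b2 with 316, and just outside it were Ndufa4l2 with 41, Cox7b2 with 3 and Cox8b and Cox8c with 0 each.

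Promoter windows of RefSeq (GRCm38.p6, 250 bases before to 50 bases after the start) were matched for 74 of the 88 genes. Sites of 3 activators known for respiratory chain genes were looked up by their letters on both strands: GCGCATGC for NRF1, CCGGAAG for the ETS family that includes GABP, and AAGATGGC for YY1. The NRF1 letters occurred in 12 of the 74 genes (16.2%), against 6.42% of the 7946 detected genes with a window and 3.05% of all 27025. For YY1 the count was 11 (14.9%), against 5.90% and 3.19%, and for ETS it was 17 (23.0%), against 22.4% of detected genes and 9.93% of all. TATAAA was found in 5 (6.76%), against 8.44% and 15.7%, and 40 genes held none of the first 3 motifs. A few windows are printed because their genes recur below: Cox6a1, the common form of a subunit whose other form separates plasmacytoid cells, Uqcrh and Ndufb8, which differ between classes, and Cox7a1, a form known from muscle. Capitals mark the motif letters, and each window is read 5′ to 3′ on the gene's strand.
Cox6a1: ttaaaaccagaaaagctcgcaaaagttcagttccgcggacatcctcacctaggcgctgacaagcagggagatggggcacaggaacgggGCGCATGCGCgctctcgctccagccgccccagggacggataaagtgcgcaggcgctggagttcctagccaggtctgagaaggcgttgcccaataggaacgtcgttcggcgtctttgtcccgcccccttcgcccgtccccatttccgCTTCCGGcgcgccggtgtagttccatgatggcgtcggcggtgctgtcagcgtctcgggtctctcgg
Uqcrh: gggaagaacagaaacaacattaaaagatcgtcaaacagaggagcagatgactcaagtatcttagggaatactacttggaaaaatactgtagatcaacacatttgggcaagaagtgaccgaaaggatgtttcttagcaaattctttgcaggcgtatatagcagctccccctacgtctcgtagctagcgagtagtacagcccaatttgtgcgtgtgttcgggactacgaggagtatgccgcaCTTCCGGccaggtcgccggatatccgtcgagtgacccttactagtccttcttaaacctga
Ndufb8: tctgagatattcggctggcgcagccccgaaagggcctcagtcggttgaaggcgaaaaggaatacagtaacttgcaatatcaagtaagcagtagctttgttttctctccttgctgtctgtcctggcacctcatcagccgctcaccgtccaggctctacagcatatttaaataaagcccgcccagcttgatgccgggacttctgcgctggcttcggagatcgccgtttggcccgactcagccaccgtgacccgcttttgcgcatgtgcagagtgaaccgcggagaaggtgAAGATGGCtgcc
Cox7a1: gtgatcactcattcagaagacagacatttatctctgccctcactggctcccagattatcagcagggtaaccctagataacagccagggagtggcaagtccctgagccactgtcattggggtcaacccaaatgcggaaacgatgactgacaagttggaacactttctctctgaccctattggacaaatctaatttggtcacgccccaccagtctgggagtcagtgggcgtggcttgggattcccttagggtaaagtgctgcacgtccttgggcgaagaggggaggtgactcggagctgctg
The Cox6a1 window (chr5:115348909-115349208, minus strand) holds the NRF1 letters on both strands, overlapping each other, 162 to 153 bases before the start and the ETS letters, in reverse orientation, 16 to 10 bases before it. The ETS letters of Uqcrh (chr4:116075021-116075320, minus strand) lie 10 to 4 bases before the start, also in reverse, and the YY1 letters of Ndufb8 (chr19:44555393-44555692, minus strand) lie 39 to 46 bases after it. No searched motif is present in the window of Cox7a1 (chr7:30183921-30184220, plus strand). No match of a factor overlaps that of another.

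There were 2449 cells with 24492486 UMIs under the label wt and 2718 cells with 27163485 UMIs under cko, and 5 cell barcodes occurred in both. The nuclear genes made up 2.49% and 2.45% of all UMIs. Cells were assigned to 10 classes by marker UMIs, and 470 and 462 cells (19.2% and 17.1%) met no gate. Every check marker not used in the gate was at least 2-fold above other cells in both libraries for the T, NK, granulocytic, dendritic (DC), plasmacytoid DC and classical monocyte gates, and 4 of 5 for C1q macrophages. Among the 5 of DC, Cd209a had only 1 UMI in wt and 6 in cko and carries no weight. For the gate on Ace and Treml4, genes of nonclassical monocytes, only 2 of 5 were, and for transitional cells (C1q genes together with Ly6c2) 0 of 5, so those names stand for the gate alone. Values are CPM, UMIs scaled to 1000000 UMIs of the class, and intervals are exact 95% intervals that cover counting error only, neither mice nor pools. With summed RNA, fewer mitochondria per cell and less RNA of these genes per mitochondrion cannot be told apart.

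Summed over the set, 9 of the 10 classes lay within a narrow band and the granulocytic cells below it. CD8 T cells had 28098 CPM in the library labelled wt and 27030 in the library labelled cko, and plasmacytoid DC 27226 and 28105. The order of those classes was reversed between the libraries. Classical monocytes followed (25197 and 26428), then NK cells (25410 and 25328), CD8-negative T cells (24055 and 25590), C1q macrophages (24726 and 24056), Ace/Treml4 cells (24092 and 24221), DC (24417 and 22883) and transitional cells (23326 and 23628). Neighbours in this middle range changed places between libraries. Granulocytic cells had 18482 and 16686 CPM, the lowest in both. The 13 mitochondrial genes were ordered differently: plasmacytoid DC were highest (31210 and 34827 CPM), CD8 T cells were near the macrophages (17135 and 17851 against 17539 and 18899), and DC (14894 and 15242) and granulocytic cells (14426 and 13556) were lowest. Mitochondrial per nuclear UMIs thus ran from 0.610 and 0.660 in CD8 T cells and 0.610 and 0.666 in DC over 0.709 and 0.786 in C1q macrophages to 1.15 and 1.24 in plasmacytoid DC.

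**Figure D1:**
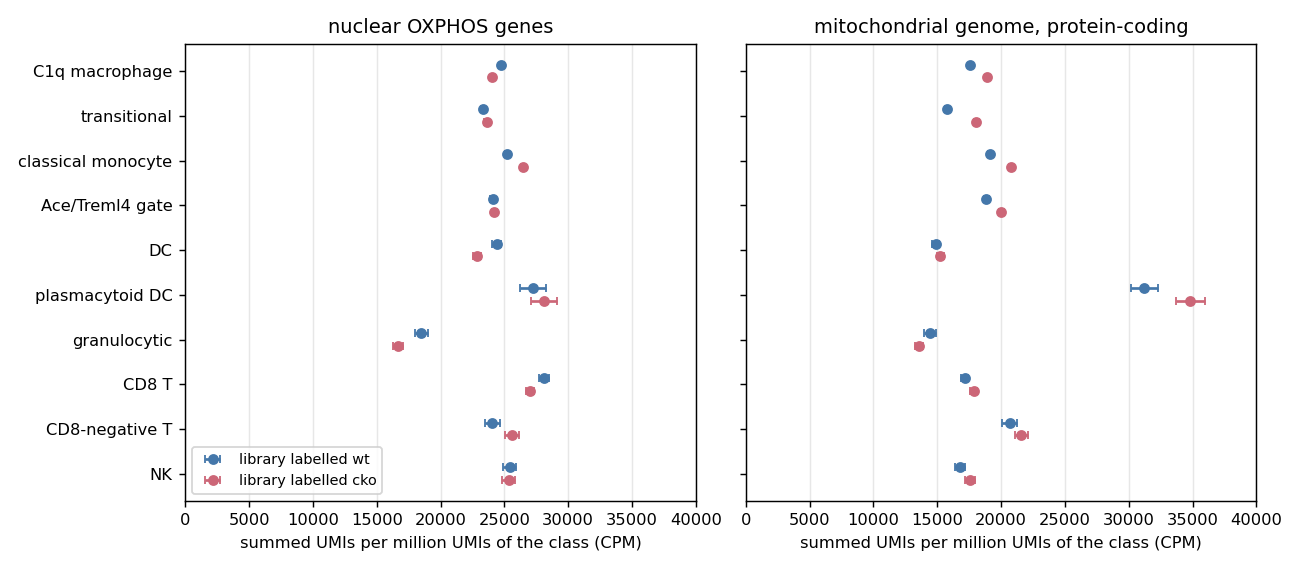
Summed CPM of the 88 nuclear genes and of the 13 mitochondrial protein genes (x axis) in each class and library (y axis), and bars are exact 95% Poisson intervals. Granulocytic cells sit at 18482 and 16686 CPM for the nuclear genes, and plasmacytoid DC stand out at 31210 and 34827 CPM for the mitochondrial genes.

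The genotype comparison asked whether the transcripts of this pathway differ between tumor leukocytes of the labelled genotypes. In C1q macrophages (597 and 811 cells) the summed nuclear genes were 24726 CPM in wt and 24056 in cko, a log2 ratio of cko over wt of -0.04 (-0.05 to -0.03). In classical monocytes (464 and 445 cells) they were 25197 and 26428 CPM, a ratio of 0.07 (0.06 to 0.08). The 13 mitochondrial genes were higher in cko in both, by 0.11 (0.10 to 0.12) in macrophages and 0.12 (0.10 to 0.13) in monocytes. As linear ratios these are 0.973 and 1.05 for the nuclear and 1.08 and 1.09 for the mitochondrial sums, and with 1 pool per label the spread between mice is unknown. The macrophage values depended on scaling and depth: the nuclear sum was -0.068 with TMM scaling and -0.063 in cells of 6000 to 12000 UMIs, and the mitochondrial sum 0.079 and 0.063. Cytosolic ribosomal proteins, another large housekeeping set, had ratios of -0.01 and -0.00 in the same classes.

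The complexes differed little among themselves. In macrophages the log2 ratios were -0.03 for complex I, 0.03 for complex II, -0.04 for complex III, -0.07 (-0.09 to -0.06) for complex IV and -0.04 for complex V. In monocytes they were 0.08, -0.03, 0.08, 0.08 and 0.06. The interval of complex II included 0 in both classes. Over all 10 classes the nuclear sum was above 0 in 5 and below 0 in 5, from -0.15 in granulocytic cells to 0.09 in CD8-negative T cells, whereas the mitochondrial sum was above 0 in 9, with the interval above 0 in 8, and -0.09 in granulocytic cells, a mixed gate whose parts moved in opposite directions and are described below. Among the 12 mitochondrial genes with at least 100 UMIs, 11 were above 0 in macrophages, where 57.5% of all genes were, and 12 in monocytes, where 56.3% were, with mt-Cytb, the mitochondrial subunit of complex III, at 0.13 (1608 and 1762 CPM) and 0.24 (1657 and 1953 CPM).

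Gene by gene, 86 members had at least 100 UMIs in macrophages. Their median log2 ratio was -0.04 (all 8312 genes: 0.03), with 30 above and 56 below 0, where 57.5% of all genes were above and 42.5% below. A log2 difference of at least 0.25 was reached upward by 1 member, where 14.7% of all genes did so, and downward by 2, where 7.24% did. These 3 were all rare transcripts, and the count in both directions was 6 with the mean of per-cell shares (26.1% of all genes), 6 with a minimum of 10 UMIs (34.1%) and 7 with a minimum of 1 UMI (47.8%). Among genes of at least 50 CPM, 0 of 75 members passed in either direction (6.9% of all genes upward and 3.13% downward). In monocytes 80 members had a median of 0.07 (all 5853 genes: 0.03), with 65 above and 15 below 0 (56.3% and 43.7% of all genes), and 3 passed upward (13.2% of all genes) and 0 downward (9.81%). At 50 CPM or more 1 of 74 passed upward (7.69%), Ndufa10, and 0 downward (4.52%). The count of 3 in monocytes was 5 with doubled (24.6% of all genes) or depth-scaled gates (23.3%), 1 with the mean of per-cell shares (24.2%) and 9 with a minimum of 10 UMIs (39.3%) or 1 UMI (50.5%).

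**Figure D2:**
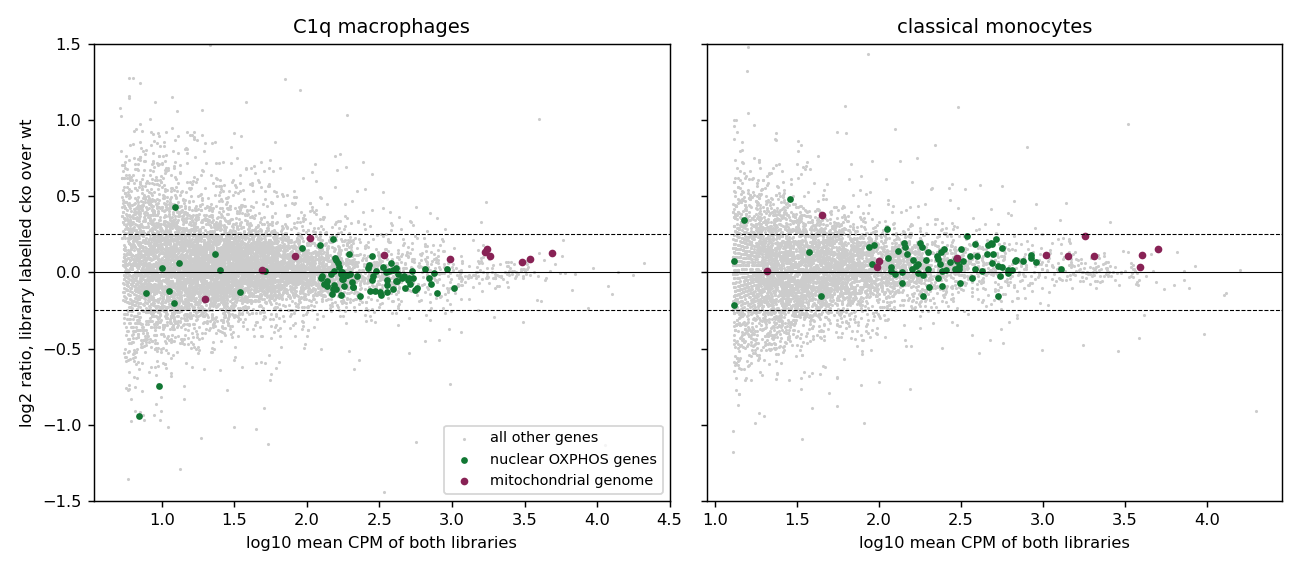
Log2 ratio of cko over wt (y axis) against mean CPM on a log10 axis (x) in C1q macrophages and classical monocytes, for all genes with at least 100 UMIs (gray; beyond 1.5 in either direction not drawn) and for the members (colored), and dashed lines mark 0.25 in each direction. Members of at least 50 CPM lie between the lines in macrophages.

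The members with the highest lower bound in macrophages were subunits of complexes I and II and an assembly factor. Sdha, the catalytic flavoprotein of succinate dehydrogenase, had 140.6 CPM in wt and 164.1 in cko, 0.22 (0.11 to 0.33), while its level in monocytes was 126.2 and 125.6. Ndufa5 had 115.0 and 130.5 CPM, 0.18 (0.06 to 0.30), and Ndufa3 269.9 and 290.4, 0.11 (0.03 to 0.19), both accessory subunits. Ndufaf1, an assembly factor of the membrane arm, had only 85 and 147 UMIs, 0.43 (0.04 to 0.84). At the other end Cox5a, a common subunit of complex IV, had 830.1 and 754.7 CPM, -0.14 (-0.18 to -0.09), and Ndufb8 338.7 and 306.0, -0.15 (-0.22 to -0.07). The lowest ratios belonged to isoforms at a few CPM. Cox6a2 had 75 and 50 UMIs, -0.94 (-1.49 to -0.41), and 23 of the 75 came from 1 cell, without which, and without the top cell of cko, it was -0.54 (-1.14 to 0.07). Cox4i2 had 98 and 75 UMIs, -0.74 (-1.20 to -0.30), with 15 of the 98 in 1 cell, and without the top cell of each library it was -0.60 (-1.08 to -0.13). In macrophages of 6000 to 12000 UMIs Cox4i2 turned to 0.53 (-0.57 to 1.72).

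In monocytes the members with the highest lower bounds were Uqcrb, which had 478.3 CPM in wt and 557.5 in cko, 0.22 (0.13 to 0.31), Ndufa3 with 314.3 and 371.0, 0.24 (0.13 to 0.35), Cox6a1 with 452.7 and 517.2, 0.19 (0.10 to 0.29), and Atp5j, a stalk subunit of ATP synthase, with 457.0 and 519.6, 0.19 (0.09 to 0.28). Thus Ndufa3 was named in both classes. The 3 past 0.25 were Ndufa10 (100.6 and 122.4 CPM, 0.28), the methyltransferase and assembly factor Ndufaf7 (94 and 127 UMIs, 0.48) and Atp5sl (52 and 64 UMIs, 0.35, interval including 0). The lowest upper bounds belonged to Cox7a2l (563.0 and 505.7 CPM, -0.15, -0.24 to -0.07) and Sdhd, a membrane anchor of complex II (194.7 and 175.0, -0.15, -0.31 to -0.00). Uqcrfs1, the Rieske iron-sulfur protein, at -0.09 and Atp5g2 at -0.07 had intervals that included 0.

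In the other 8 classes fewer members had 100 UMIs, and the shares past 0.25 are given beside those of all genes tested. Transitional cells had 3 members upward and 0 downward of 77 (14.5% and 9.23% of all genes), and Ace/Treml4 cells 2 and 1 of 77 (14.7% and 9.26%). DC had 2 and 10 of 74 (20.5% and 15.6%), CD8 T cells 5 and 10 of 74 (18.8% and 16%), CD8-negative T cells 14 and 3 of 56 (22.3% and 14%) and NK cells 8 and 6 of 69 (15.7% and 17.8%). Plasmacytoid DC had 3 and 2 of 16 (14.2% and 14.6%) and granulocytic cells 5 and 16 of 46 (17% and 33.4%). No class had a share of members above that of all genes by more than a few percentage points, and in granulocytic and CD8-negative T cells the more frequent direction was also that of all genes.

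Genes around the chain were counted from lists. Of 30 assembly factors outside the rule with 100 UMIs in macrophages, 5 passed 0.25 upward and 5 downward, where 14.7% and 7.24% of all genes did, among them Cox18 (0.58), which inserts a mitochondrial complex IV subunit, Atpaf1 (0.50), which chaperones F1, Timmdc1 (-0.74), a complex I factor, and Sdhaf2 (-0.36), which helps load FAD onto Sdha. The electron and metabolite carriers had 1 upward and 0 downward of 17 (Coq7 0.29, Coq6 0.21, Coq3 -0.19, Coq10b -0.18), the tricarboxylic acid (TCA) cycle 1 and 0 of 16 (Idh3a 0.26, Ogdh -0.14, Sucla2 -0.12) and the regulators of mitochondrial biogenesis 1 and 0 of 9 (Pprc1 0.32, Gabpa 0.19, Polrmt -0.17, Esrra -0.17). Glycolysis had 3 upward and 0 downward of 14, with a median of 0.14, its highest being Hk2 (0.35), the inducible hexokinase, and Pfkl (0.33), its lowest Pgk1 (-0.18) and Gapdh (-0.02). In monocytes, where 13.2% of all genes passed upward and 9.81% downward, the counts were 4 and 3 of 17, 2 and 0 of 14, 3 and 1 of 16, 2 and 0 of 6, and 2 and 1 of 14 in the same order. The summed glycolysis genes had ratios of 0.09 in macrophages and 0.08 in monocytes, and the summed TCA cycle genes 0.01 and 0.14.

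Against classical monocytes, the cells they are known to arise from in tumors, C1q macrophages had a slightly lower total in both libraries, by an amount that depended on scaling and depth. The log2 ratio of the summed nuclear genes was -0.03 (-0.04 to -0.02) in the library labelled wt and -0.14 (-0.15 to -0.13) in the library labelled cko. With TMM scaling it was -0.11 and -0.23, and in cells of 6000 to 12000 UMIs -0.14 and -0.27. Complex II stood apart from the others at 0.21 (0.14 to 0.28) and 0.27 (0.20 to 0.33), while complex IV was -0.05 and -0.21 and complex I 0.00 and -0.10. The mitochondrial genes split by complex, with 0.11 and 0.13 for the complex I genes and -0.27 in both libraries for the complex IV genes. Glycolysis was -0.19 in both and the TCA cycle 0.19 and 0.05. Median depth was 11560 and 11106 UMIs in macrophages against 8270 and 8241 in monocytes, and within macrophages the share of these genes in a cell moved with its depth (Spearman rho 0.39 over 597 cells and 0.47 over 811 cells of 1 library each).

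Of 83 members compared, 6 were at least 0.5 higher in macrophages in both libraries, where 15.8% of all 7162 genes were, and 2 lower, where 9.65% were. The higher ones were 3 complex I assembly factors, Ndufaf4 (24.97 and 25.25 CPM against 12.7 and 13.3, log2 0.98 and 0.92), Ndufaf6 (1.23 and 0.53) and Ndufaf2 (0.67 and 1.00), the accessory subunits Ndufa12 (190.4 and 188.2 CPM against 110.3 and 117.5, 0.79 and 0.68) and Ndufab1, the mitochondrial acyl carrier protein (0.55 and 0.54), and Sdhc (141.4 and 133.1 CPM against 89.0 and 92.6, 0.67 and 0.52). The lower ones were Ndufaf7 (-1.26 and -1.71) and Uqcrh (424.0 and 407.9 CPM against 617.5 and 616.1, -0.54 and -0.60), whose window was printed above. Next below 0 came Cox7a2l (-0.60 and -0.39), Ndufa1 (-0.40 and -0.55) and Ndufa6 (-0.51 and -0.43). Restricted to cells of 6000 to 12000 UMIs, 0 of 76 members passed, where 14.4% of all genes did. In those cells Ndufa12 was 0.32 and 0.43, Sdhc 0.21 and 0.06, Uqcrh -0.35 and -0.40 and Ndufa1 -0.48 and -0.53, and the differences of Ndufa12, Sdhc and Uqcrh were smaller in that window.

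**Figure D3:**
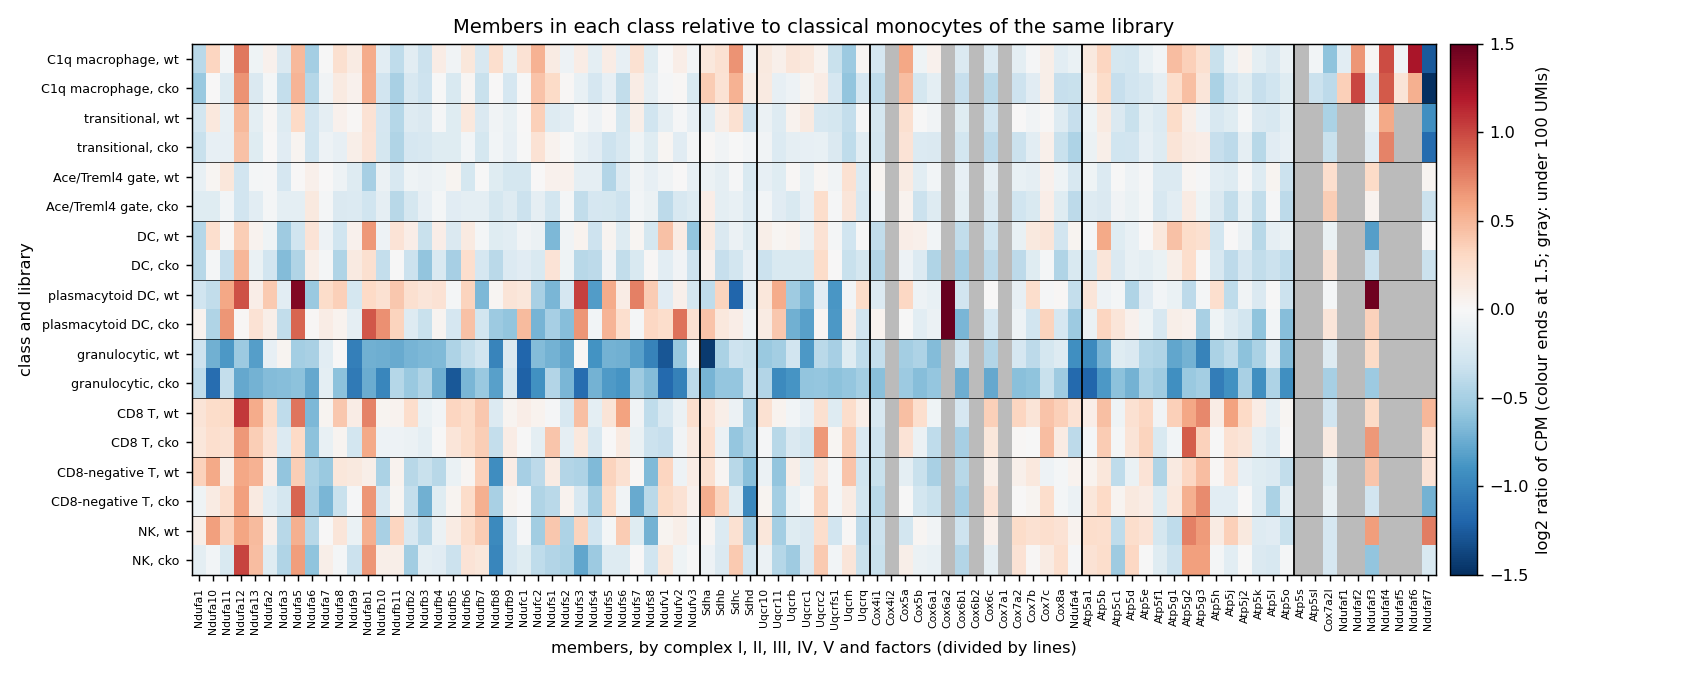
Log2 ratio of each class to classical monocytes (colors, ending at 1.5 in either direction) for every member, grouped by complex, in both libraries, and gray marks a member with under 100 UMIs. The granulocytic rows are blue for most members, and Cox6a2 is the darkest red cell of the plasmacytoid DC rows.

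The other myeloid gates and the CD8-negative T cells held few members past 0.5 against monocytes in both libraries. Transitional cells had 1 higher (5.64% of all genes), Ndufaf4 (0.56 and 0.74), and 1 lower (4.22%), Ndufaf7 (-0.92 and -1.16), as in macrophages. Ace/Treml4 cells had 0 of 77 in either direction (3.08% and 3.31%), and by sign alone 55 of the 77 were below 0 in both, against 36.3% of all genes, much as in transitional cells (51 of 78, against 35.4%), which share the monocyte reference. DC had 0 higher (12%) and 1 lower (18.5%), Ndufa3 (217.3 and 237.0 CPM against 314.3 and 371.0). CD8-negative T cells had 1 higher (19.3%), Ndufa12 (0.58 and 0.61), and 4 lower (24.3%), which were Sdhd (-0.63 and -0.96), Uqcr11, Ndufs4 and Ndufa7.

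The clearest single-gene pattern was Cox6a2, the form of complex IV subunit VIa that is known from heart and skeletal muscle, in plasmacytoid DC. These cells, 18 in each library, had 221 Cox6a2 UMIs in the library labelled wt and 240 in the library labelled cko, 2147 and 2379 CPM. It was seen in 17 of 18 and 18 of 18 cells, with 0 to 27 UMIs per cell (median 9.5) and 1 to 38 (median 15), and it exceeded Cox6a1 in 17 and 15 cells. Classical monocytes, which are not known for the gene, had 2 UMIs in each library, in 0.43% and 0.45% of cells, at a median depth of 8270 and 8241 UMIs per cell against 5774 and 5668 in plasmacytoid DC. The ratio of the CPM values was 4236 (1159 to 35195) and 4547 (1245 to 37763). Cox6a2 took 83.7% (78.7 to 88.0) and 83.0% (78.2 to 87.2) of the summed Cox6a1 and Cox6a2 UMIs in plasmacytoid DC, against 0.112% and 0.101% in monocytes, 1.91% and 1.02% in C1q macrophages and 0 of 309 and 0 of 410 in CD8 T cells, which allows up to 0.971% and 0.732%. Plasmacytoid DC held 68.8% and 74.8% of all Cox6a2 UMIs of their libraries. C1q macrophages had 75 and 50 of the other UMIs, in 35 of 597 and 39 of 811 cells (9.23 and 4.80 CPM), transitional cells 3 in 2 cells and 13 in 5 cells, and single cells carried the 13 UMIs of NK cells (wt) and the 9 of DC (cko).

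**Figure D4:**
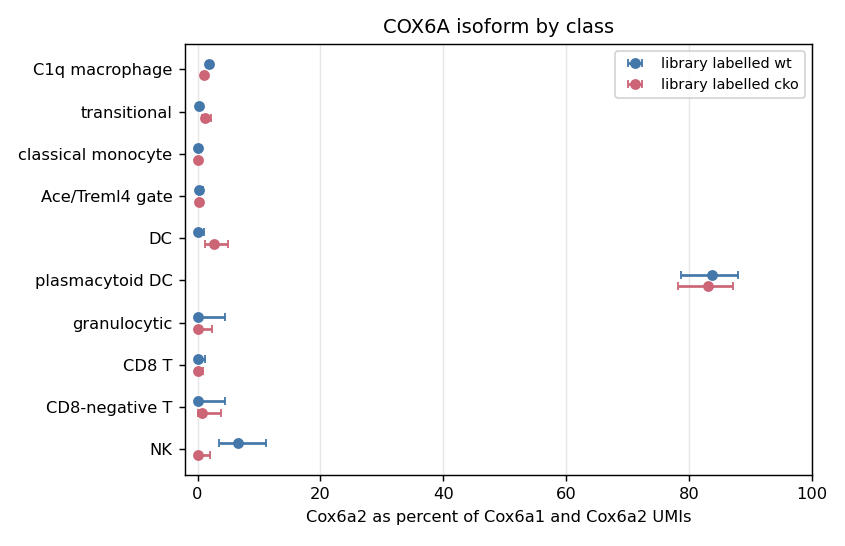
Cox6a2 as a percentage of Cox6a1 plus Cox6a2 UMIs (axis from 0 to 100) by class and library, with exact 95% binomial intervals. Plasmacytoid DC are at 83.7% and 83.0%, and C1q macrophages, the next class with many UMIs, at 1.91% and 1.02%.

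Cox6a1 itself was at a like level in plasmacytoid DC (418 and 486 CPM, from 43 and 49 UMIs) and in monocytes (453 and 517). Complex IV was higher there than in monocytes by 0.34 (0.24 to 0.43) and 0.29 (0.19 to 0.39). Without Cox6a2 the difference was -0.06 (-0.18 to 0.04) and -0.15 (-0.26 to -0.04), and for all nuclear genes without it -0.01 (-0.06 to 0.05) and -0.04 (-0.10 to 0.02). Cox6a2 alone was 7.89% and 8.47% of the nuclear UMIs of these cells. Mitochondrial genes were 0.71 (0.66 to 0.76) and 0.75 (0.70 to 0.80) higher, in all 4 complexes with such genes, and glycolysis was -1.56 and -1.49. Of 77 members, 5 were at least 0.5 higher in both libraries (18.3% of all genes) and 4 lower (24.6%). Besides Cox6a2 the higher ones were Ndufa5 (213.8 and 168.5 CPM against 81.9 and 91.8), the core subunit Ndufs3 (252.6 and 218.1 against 124.5 and 137.4), Ndufs5 and Ndufa11. The lower ones were the core subunit Ndufs1 and 3 genes of complex III, Uqcrfs1 (136.0 and 128.9 CPM against 249.2 and 234.2), Uqcrc1 and Uqcrb. Members could enter this comparison through monocyte UMIs. In plasmacytoid DC alone, only 16 members reached the minimum of UMIs over both libraries. The gate held 102916 UMIs of all genes in wt and 100871 in cko. Apart from Cox6a2, no intervals are given for these members, so counting error was not weighed for them.

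Other isoforms that are known from restricted tissues were rare here, and each had its own distribution. Cox4i2 is the form of subunit IV known from lung and oxygen-sensing cells. C1q macrophages held 98 of its 128 UMIs (wt) and 75 of 118 (cko), in 8.88% and 6.41% of cells. In monocytes 1.08% and 1.57% of cells had it, and the DC, plasmacytoid DC, granulocytic, T and NK gates had 0 UMIs. Against 1.12% and 0.718% of summed Cox4i1 and Cox4i2 UMIs in C1q macrophages, these zeros allow up to 2.63% and 2.22% in plasmacytoid DC. The limits were 1.17% and 0.888% in CD8-negative T cells, 1.08% and 0.798% in granulocytic cells and 0.699% and 0.756% in NK cells. In DC (0.407% and 0.365%) and CD8 T cells (0.390% and 0.278%) they were below the macrophage share. Cox7a1 was spread more widely. It had 8.12 and 7.39 CPM in C1q macrophages (66 and 77 UMIs), against 390.7 and 394.7 CPM for its common counterpart Cox7a2. Transitional cells had 9.0 and 4.8 CPM of Cox7a1, monocytes 2.79 and 6.54 and cells without a gate 8.97 and 8.24. Of the 33 and 28 UMIs in cells without a gate, 18 and 6 came from a few cells with Acp5 and Ctsk, described below. Cox6b2, known from testis, was instead at 10.4 and 12.6 CPM in monocytes and 3.32 and 1.92 CPM in macrophages. Ndufa4l2, a hypoxia-responsive relative of Ndufa4 below the UMI limit, had 14 of its 19 UMIs (wt) in 1 transitional cell. Among the genes Atp5g1, Atp5g2 and Atp5g3, which encode the same mature c subunit of ATP synthase, C1q macrophages used 39.0%, 38.0% and 23.0% in wt and 38.6%, 40.0% and 21.4% in cko. In NK cells Atp5g2 took 225 of 459 and 180 of 400 UMIs and Atp5g1 21.1% and 26.0%, while CD8 T cells had 39.5% and 49.7% Atp5g2, a spread between libraries wider than that of the macrophages.

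Granulocytic cells (42 and 77) had less of the whole set. The nuclear sum was -0.45 (-0.49 to -0.41) and -0.66 (-0.70 to -0.63) against classical monocytes, and complexes I to V ranged from -0.39 to -0.54 in wt and from -0.53 to -0.71 in cko. Of 76 members, 33 were at least 0.5 lower in both libraries, where 30.1% of all genes were, and 0 were higher, where 6.1% were. By sign alone, 72 of 76 were below 0 in both, against 67.9% of all genes. Mitochondrial genes (-0.40 and -0.61), ribosomal proteins (-0.42 and -0.68) and the TCA cycle (-0.44 and -0.78) were lower too, but glycolysis was 0.28 and 0.05. Low values were general: the median log2 ratio was -0.37 and -0.55 over all 4112 genes and -0.50 and -0.63 over the members, and with TMM scaling, which centers on the bulk of genes, the nuclear sum was -0.22 and -0.29. In cells of 6000 to 12000 UMIs it was -0.22 and -0.19, with doubled gate thresholds -0.68 and -1.05, and with the mean of per-cell shares -0.67 and -1.07. Median depth was 6366 and 4152 UMIs.

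Cells of this gate were spread over a wide range, with quartiles of the per-cell share of nuclear genes at 0.74%, 1.88% and 2.17% in wt and 0.57%, 0.78% and 2.11% in cko, where classical monocytes had 2.15%, 2.46% and 2.75% in wt and 2.28%, 2.59% and 2.93% in cko. The 20 and 42 cells with under 3 UMIs each of Csf1r and Ly6c2, a division made after the values were seen, had 15273 and 8296 CPM, a log2 ratio to monocytes of -0.72 and -1.67. The other 22 and 35 cells had 20215 and 21991 CPM. Mitochondrial genes were at 10783 and 7340 CPM in the former and 16394 and 17487 in the latter, so for both sums the library labelled cko was lower in the former and higher in the latter. The former also had 13694 and 30500 CPM of Retnlg, a neutrophil gene, against 4357 and 6991, and a median depth of 3748 and 3722 UMIs against 8101 and 7622. The part of mixed droplets or of depth in the values of the whole gate was not tested.

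**Figure D5:**
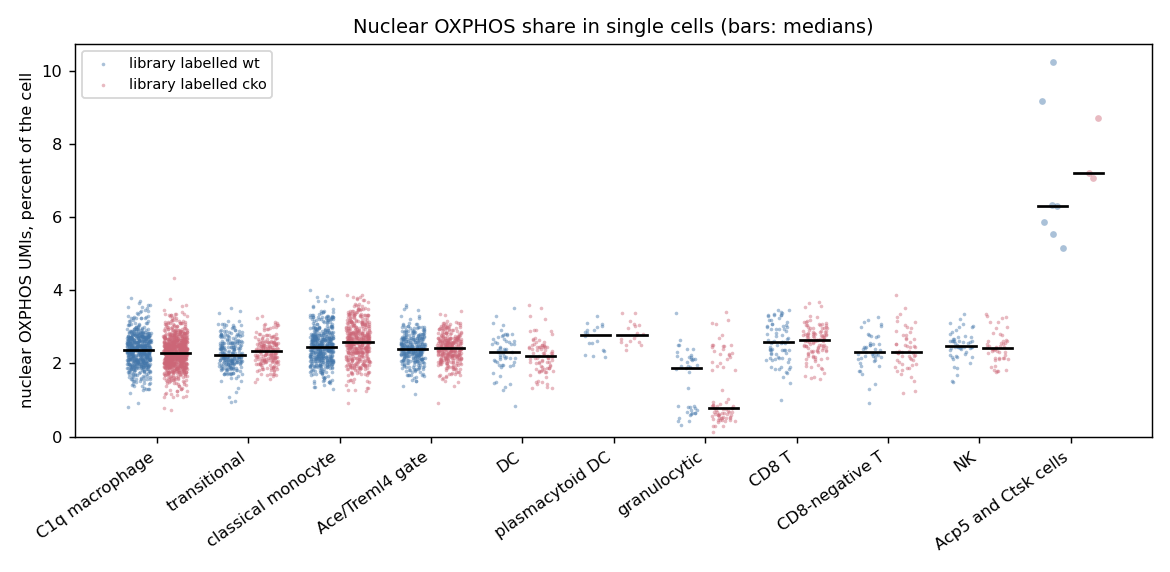
Percentage of each cell's UMIs from the nuclear oxidative phosphorylation genes (y axis) by class and library, 1 point per cell, with medians as black bars. Granulocytic cells reach far below the other classes (medians 1.88% and 0.78%), and the 10 cells with Acp5 and Ctsk lie above all of them, from 5.16% to 10.2%.

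In the lymphocyte gates few members passed 0.5 against monocytes in both libraries, a smaller share than among all genes. In CD8 T cells (75 and 111) the nuclear sum was 0.16 (0.14 to 0.18) and 0.03 (0.01 to 0.05) above monocytes and the mitochondrial sum -0.16 and -0.22. Of 77 members 3 were higher by 0.5 in both (22.7% of all genes), Ndufa12 (229.7 and 184.0 CPM), Ndufab1 and Atp5g2, and 1 lower (29% of all genes), Ndufa6 (232.5 and 238.3 CPM against 372.4 and 363.7). NK cells (52 and 49) had sums of 0.01 and -0.06. There 5 members were higher (19.1%), again Ndufa12, Ndufab1 and Atp5g2, with Atp5g3 and Ndufa5, and 1 lower (28.7%), Ndufb8 (147.4 and 154.9 CPM against 285.4 and 304.0, -0.95 and -0.97). All these comparisons share the monocytes, whose Ndufa12 level of 110.3 and 117.5 CPM enters each of them. Across CD8 T cells of 1 library, the nuclear and the mitochondrial share of a cell had a Spearman rho of -0.42 (75 cells) and -0.30 (111 cells), against 0.35 and 0.31 in monocytes (464 and 445 cells) and 0.06 and -0.03 in macrophages. Both shares also moved with depth in the CD8 T cells (0.61 and 0.45 for nuclear genes, -0.32 and -0.23 for mitochondrial genes).

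The highest shares in either library belonged to a few cells that met no gate. Sorted by share, the top cells carried many UMIs of Acp5 (tartrate-resistant acid phosphatase) and Ctsk (cathepsin K), enzymes known from bone-resorbing osteoclasts, and a set was then defined, after these values were seen, as cells with at least 20 UMIs of each. It held 7 cells in wt and 3 in cko, and since the cells were found by this share, their levels are a description. Per cell, nuclear oxidative phosphorylation genes were 5.16% to 10.2% of UMIs in wt and 7.06% to 8.71% in cko, where the 99th percentile of all cells was 3.55% and 3.58%. The 90 and 179 other cells in the same range of depth had medians of 2.72% and 2.61% and maxima of 3.59% and 3.69%. Summed, the set had 71376 and 78340 CPM, which was 2.89-fold and 3.26-fold the level of C1q macrophages.

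These cells were found by the summed share of the same genes, so high levels of most members follow largely from that choice. Of 81 compared, 76 were at least 0.5 higher than in C1q macrophages in both libraries (13.9% of all genes) and 0 lower (28.1%). Medians were 1.48 and 1.67, and -0.19 and -0.36 for all genes. The values of all genes are given for scale only. Members could enter through macrophage UMIs, as did Atp5sl with 4 UMIs and 1 UMI in these cells. Complexes III (3.58-fold and 4.03-fold) and II (3.32-fold and 4.03-fold) stood above IV (2.93 and 3.60), V (2.83 and 3.04) and I (2.66 and 2.86), and the factors were at 1.93 and 2.15. Cox4i1 reached 3475 and 4053 CPM against 1069 and 996, Uqcr10 1579 and 1847 against 333 and 341, and Ndufv1, the NADH-binding core subunit, 363 and 335 against 87.7 and 98.0. Cox7a1 had 18 and 6 UMIs (75.2 and 74.4 CPM against 8.12 and 7.39). The TCA cycle was 3.97-fold and 3.63-fold higher, mitochondrial genes 1.83-fold and 1.97-fold, ribosomal proteins 1.31-fold and 1.35-fold and glycolysis 1.04-fold and 0.937-fold. Acp5 was at 18175 and 15703 CPM, Ctsk at 13314 and 13893, Mmp9 at 7718 and 5081 and Atp6v0d2 at 1098 and 1239. Of the other markers looked up, Dcstamp (376 and 545 CPM), Ocstamp (731 and 818), Oscar (263 and 161), Nfatc1 and Ckb were above C1q macrophages in both libraries. The C1q genes (C1qa 58.5 and 37.2 CPM), Csf1r and Adgre1 were below them. Calcr had 0 UMIs in these cells and was at 0 CPM in C1q macrophages. Ptprc, which encodes CD45, had 20 UMIs and 1 UMI. Cells without a gate had 26376 and 24563 CPM with these cells and 23243 and 23255 without them.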

How the data were processed

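The authors deposited raw UMI counts per gene and cell (10x Genomics 3′ v2) for cells already called, and the submitters' processing notes name Cell Ranger, Seurat and mm10 without versions. Both libraries were grouped by title. Members and lists were chosen with earlier results of these data known. Cells under 200 genes or above 10% mitochondrial UMIs were dropped (4 of wt and 14 of cko). Gates used UMI sums of lineage genes: at least 2 for Cd3d, Cd3e and Cd3g, 1 for Cd8a and Cd8b1, 2 for Ncr1 and Klrb1c, 20 for S100a8 and S100a9 with 2 for Csf3r and Cxcr2, 3 for Siglech and Ccr9, 2 for Flt3, Zbtb46, Xcr1, Clec9a and Ccr7, 2 for Ace and Treml4, 3 for Csf1r with 1 other gene, 10 for C1qa, C1qb and C1qc and 3 for Ly6c2. No doublet caller was run, and cells with markers of both lymphoid and myeloid lineages, or of T and NK cells, were set aside.

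UMIs were summed per class and library and divided by all UMIs of the class (CPM). Intervals were exact: Poisson for sums, conditional binomial for ratios and Clopper-Pearson for shares. A gene entered a comparison with at least 100 UMIs over the samples compared, and counts past a fold used 0.25 (library) or 0.5 in both libraries (class) on the log2 scale. With 1 library per label there was no test and no p-value. A count of 0 was given the limit that 3 counts allow. Named members were the highest 2 and lowest 1 of each complex, the 4 highest lower and 4 lowest upper bounds of cko over wt in macrophages and monocytes, the 5 largest and 5 smallest class ratios, isoform families, and 2 highest and 2 lowest of each list. Members named for other classes, and the cells with Acp5 and Ctsk, were chosen after their values were seen. Scripts (Python 3.11.15, numpy 2.4.6, scipy 1.17.1, pandas 2.3.3, matplotlib 3.10.9, and R 4.3.3 with edgeR 4.0.16 for TMM factors only) were tested on simulated data. Alternatives were other gates, scalings, filters and minimum counts, and, chosen after the data were seen, cells of 6000 to 12000 UMIs and granulocytic cells with under 3 UMIs each of Csf1r and Ly6c2. The other gene of the Csf1r gate and 1 gene that the naming rule chose are not reported here.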

Additional observations from a re-analysis of the deposited data

Results flagged for a closer look

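The log2 ratio of cko over wt of the summed nuclear genes was -0.04 in C1q macrophages and 0.07 in classical monocytes. It was singled out because the signs are opposite, and the gap between them is 0.11. The difference was not tested, since each label has 1 library.

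Cells with Acp5 and Ctsk, which the class comparisons do not use, had 71376 CPM of nuclear oxidative phosphorylation genes in the library labelled wt (7 cells) and 78340 in the library labelled cko (3 cells), above every class. Their numbers are small, and they are the same cells that were chosen from the top of the per-cell shares.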

How the results depend on the processing

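No paired analysis was possible because each label has 1 library, and for the same reason no replicate could be left out. The 11 settings gave 491 values for 50 results. Of the values for the main comparisons 63 stayed within counting error or within 1.5 times the count and 50 moved, none with a change of sign. Of the values for single genes 361 stayed, 16 moved and 1 changed sign, Cox4i2 in macrophages, which was 0.53 in cells of 6000 to 12000 UMIs. The sign of the nuclear sum, cko over wt, was negative in macrophages and positive in monocytes in every setting.

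With no filter on the mitochondrial share, the mitochondrial sum was 0.12 for cko over wt in macrophages and -0.11 for macrophages over monocytes in both libraries. Doubled gate thresholds gave 0.087 for the nuclear sum of monocytes, 5 members past the fold there, -0.086 for mitochondrial genes of macrophages over monocytes (wt) and -0.68 and -1.05 for granulocytic cells over monocytes. Gates on UMIs scaled to 10000 per cell gave 5 members past the fold in monocytes, -0.16 for mitochondrial genes of macrophages over monocytes (cko) and -0.79 for granulocytic cells (cko). With the mean over cells of per-cell shares, members past the fold were 6 in macrophages, 1 in monocytes and 4 between the classes. The share of all genes is not given for the count between the classes, so that count is not read as a result about the members. The nuclear sum of macrophages over monocytes was then -0.061 and -0.17, granulocytic cells were at -0.67 and -1.07, the mitochondrial sum was 0.14 for cko over wt in macrophages, and macrophages over monocytes had -0.074 and -0.056. TMM scaling gave nuclear sums of -0.068 (macrophages) and 0.052 (monocytes) for cko over wt, -0.11 and -0.23 for macrophages over monocytes and -0.22 and -0.29 for granulocytic cells, and mitochondrial sums of 0.079, -0.20 and -0.23. Without cells above 30000 UMIs the nuclear sum of macrophages over monocytes was -0.044 and -0.15, with 5 members past the fold. That count too lacks the share of all genes and is not read as particular to the members. Mitochondrial sums without those cells were 0.13 (cko over wt) and -0.12 (macrophages over monocytes, cko). A minimum of 10 UMIs gave 6 and 9 members past the fold in macrophages and monocytes, and a minimum of 1 UMI 7 and 9. In cells of 6000 to 12000 UMIs the nuclear sum of macrophages was -0.063 for cko over wt and -0.14 and -0.27 over monocytes with 0 members past the fold, mitochondrial sums were 0.063, -0.054 and -0.096, and granulocytic cells were at -0.22 and -0.19. Granulocytic cells with under 3 UMIs each of Csf1r and Ly6c2 gave -0.72 and -1.67. The causes of these shifts were not tested.

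Depth limits the rare members: isoforms with under 100 UMIs in a class, and plasmacytoid DC with 2802 and 2835 UMIs of the whole set, allow only large differences to be seen. Counting intervals do not cover mice or pools.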
